A study of Homo sapiens with 4 samples.

Results

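The genes described here encode secreted ligands that act on blood and lymphatic vessels, namely VEGFA, VEGFB, VEGFC, PGF, ANGPT1, ANGPT2, ANGPTL2 and ANGPTL4. They were chosen by gene symbol, and all 8 were found among the 19314 genes of the deposited expression table. To ask which transcripts differ after loss of PTPRN, the study sequenced 4 libraries from U87, an established line of human glioma cells, with 2 of the genotype PTPRN knockdown (titled PTP2) and 2 of the genotype SCR. Knockdown was made by 1 short hairpin RNA against PTPRN, named shPTPRN-2 in the study, and the SCR cells received a scrambled hairpin (shScr), so cells of both groups carried a pLKO.1 hairpin vector. No second hairpin against PTPRN was analysed here, and the labels do not say whether the replicates came from separate cultures, so the p-values may measure technical spread only.

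VEGFA is the main driver of sprouting of new vessels and is induced by hypoxia-inducible factors (HIF), which accumulate when oxygen is low. VEGFB and PGF bind the receptor FLT1, VEGFA binds FLT1 and KDR, and VEGFC acts through FLT4 on lymphatic vessels and, after processing, through KDR. ANGPT1 activates the receptor TEK and stabilizes vessels, while ANGPT2 is known as its context-dependent antagonist. ANGPTL2 and ANGPTL4 resemble angiopoietins in structure but do not bind TEK, and ANGPTL4 is best known as an inhibitor of lipoprotein lipase whose transcription is driven by PPAR receptors and by HIF. Glioblastoma is rich in vessels, and the tumour cells themselves are a known source of VEGFA.

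Promoter windows of 300 bases (250 before and 50 after the RefSeq start site, build GRCh38.p14) were matched for 5 of the 8 genes. VEGFA, ANGPT1 and ANGPT2 had no entry. The windows are shown because a list of genes known to be induced by hypoxia fell together in these libraries. Capitals mark the core of the hypoxia response element, searched as ACGTG and as GCGTG on both strands, and the TATA box TATAAA, also on both strands. A match on the reverse strand reads as CACGT or CACGC. The letters ACGTG and GCGTG were found in 21.4% and 36.5% of the 35116 promoter windows of the table, either of them in 48.4%, and TATAAA in 11.5%. Of the 16 hypoxia-induced genes listed further on, 15 had at least 1 window in the table, 20 windows in all, and 19 of these 20 windows held either core. Counted by gene, with any window of the gene, this was 15 of 15, beside 52.4% of the 27305 genes of the table, coding or not, and no test was made of it. The 15 genes were listed for known induction by hypoxia, and the others were not matched to them for GC content. The contrast therefore says nothing about these libraries. The windows of the 4 ligand genes with a promoter entry and an FPKM above 1 in every library follow.
ANGPTL4, chr19:8363905-8364204, plus strand: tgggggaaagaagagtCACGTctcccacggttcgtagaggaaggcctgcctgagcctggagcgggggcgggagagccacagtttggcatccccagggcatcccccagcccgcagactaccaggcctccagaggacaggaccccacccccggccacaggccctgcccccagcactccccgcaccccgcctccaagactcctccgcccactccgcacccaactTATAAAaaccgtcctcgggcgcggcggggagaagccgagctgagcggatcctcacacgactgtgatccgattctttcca
VEGFB, chr11:64234334-64234633, plus strand: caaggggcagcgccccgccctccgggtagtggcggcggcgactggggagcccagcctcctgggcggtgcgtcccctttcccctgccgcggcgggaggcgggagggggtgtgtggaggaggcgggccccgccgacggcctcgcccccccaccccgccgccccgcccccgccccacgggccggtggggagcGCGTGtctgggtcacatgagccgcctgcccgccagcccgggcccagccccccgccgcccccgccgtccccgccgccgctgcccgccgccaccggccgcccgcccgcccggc
VEGFC, chr4:176792873-176793172, minus strand: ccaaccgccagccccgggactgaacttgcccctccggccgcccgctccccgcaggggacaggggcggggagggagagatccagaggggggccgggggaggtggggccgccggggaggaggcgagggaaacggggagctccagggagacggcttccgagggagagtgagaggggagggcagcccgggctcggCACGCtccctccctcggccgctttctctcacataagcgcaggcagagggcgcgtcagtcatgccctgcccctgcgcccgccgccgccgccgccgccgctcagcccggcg
ANGPTL2, chr9:127122586-127122885, minus strand: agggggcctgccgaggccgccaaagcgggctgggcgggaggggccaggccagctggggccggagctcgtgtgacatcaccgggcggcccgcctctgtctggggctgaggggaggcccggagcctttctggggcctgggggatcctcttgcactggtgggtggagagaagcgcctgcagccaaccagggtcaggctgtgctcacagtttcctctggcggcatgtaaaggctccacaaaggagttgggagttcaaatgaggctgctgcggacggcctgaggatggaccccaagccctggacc

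The ANGPTL4 window held 1 core, ACGTG on the reverse strand, which began 234 bases before the start site, and a TATAAA that began 29 bases before it. VEGFB and VEGFC each held 1 GCGTG, beginning 61 and 59 bases before the start site, and no TATAAA. ANGPTL2 held neither. The GC content was 66.3% for ANGPTL4, 84.7% for VEGFB, 76.3% for VEGFC and 68.0% for ANGPTL2. The start site of VEGFB was the same in the deposited table, while those of ANGPTL4, ANGPTL2 and VEGFC lay 28, 130 and 177 bases apart from it. PGF had 2 overlapping windows that share 1 GCGTG. A match is a description of these letters and not evidence of binding.

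Values were deposited as FPKM, the number of fragments scaled to transcript length and to the mapped fragments of the library, so that levels of genes of different length can be set side by side. The fold changes below are differences of log2(FPKM + 1), knockdown minus SCR, which understate the change of weakly expressed genes. A gene is said to have risen or fallen at an adjusted p of at most 0.05 (limma, Benjamini-Hochberg over all 16595 genes tested), and is called differential where the change was at least 2-fold and the adjusted p did not exceed 0.001. The steps between low FPKM values gave an estimated depth of 17800000 reads in each knockdown library, and 19400000 and 17800000 in the SCR libraries. PTPRN, the targeted gene, had an FPKM of 12.1 and 11.7 with knockdown against 84.8 and 85.0 with SCR (log2 fold change -2.74, standard error (SE) 0.03, limma adjusted p = 0.000148). The growth protocol in the labels names hCMEC/D3, a brain endothelial line. Of the endothelial markers, CDH5 and CLDN5 did not pass an FPKM of 0.03 in any library. PECAM1 reached 2.50 at most, and no other of the 11 markers with a value reached 1. CDKN2A and MTAP, which U87 cells are known to have lost, reached 0.05 and 0.34.

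In SCR cells VEGFA was the most abundant of the 8 transcripts. VEGFC and VEGFB followed, then ANGPTL4, ANGPTL2 and ANGPT1, and PGF and ANGPT2 were close to 0. The mean FPKM with SCR was 224 ± 2.52 (SD, n = 2) for VEGFA, 60.3 ± 0.792 for VEGFC and 52.6 ± 2.16 for VEGFB. ANGPTL4 had 27.1 ± 1.06, ANGPTL2 14.7 ± 0.884 and ANGPT1 6.08 ± 0.106. The libraries of neighbouring genes in this order did not overlap. With knockdown the order of the 5 most abundant genes stayed as it was, and ANGPT1 dropped below PGF. There ANGPT1 (0.20 and 0.33) and ANGPT2 (0.20 and 0.12) shared their value of 0.20 and could not be ranked.

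**Figure D1:**
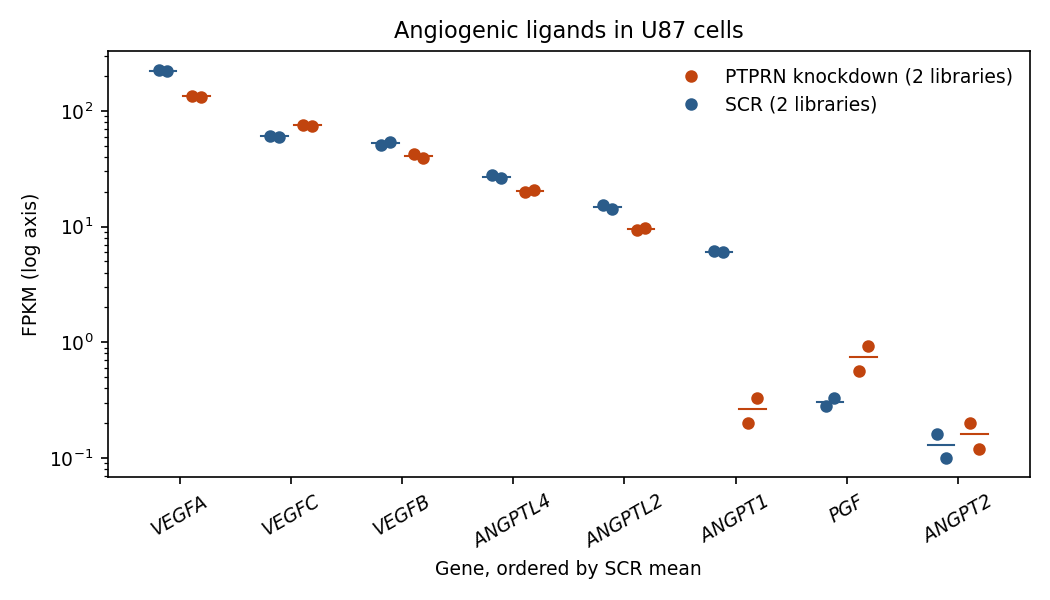
FPKM of the 8 ligand genes (log axis) in each library, with points for the 2 PTPRN knockdown and 2 SCR libraries and short lines at the group means. VEGFA lay between 133 and 226 in all libraries, ANGPT1 lay at 6.0 and 6.15 with SCR and at 0.20 and 0.33 with knockdown, and the libraries of the groups overlapped for ANGPT2.

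Of the 8 ligand genes, 1 was differential, beside 6.69% of all genes tested. At an adjusted p of at most 0.05, 7 of 8 changed, beside 57.9% of all genes. Of these, 5 fell (27.1% of all genes did) and 2 rose (30.8%). The groups did not overlap in 7 of 8 genes, beside 75.6% of all genes, so a lack of overlap is the usual state in this comparison. The median log2 fold change was -0.38 for the 8 genes and 0.01 for all genes, and no test was made over the list. With 2 libraries against 2, an exact permutation test of a single value cannot go below p = 0.333.

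ANGPT1, the TEK agonist, was the differential gene. It had an FPKM of 0.20 and 0.33 with knockdown, and of 6.15 and 6.0 with SCR, and both knockdown libraries lay far below both controls. The mean ratio of SCR to knockdown was 22.9, a fall of 95.6%. The log2 fold change was -2.49 (SE 0.06, 95% interval -2.66 to -2.31, limma adjusted p = 0.000275). At the length of its longest transcript, 4367 bases, these FPKM values correspond to about 15 and 25 reads with knockdown and 517 and 463 with SCR, so the low level is known with less precision than the high one. The size depended on the pseudocount and was -4.10 with 0.1 in place of 1. ANGPT1 passed an adjusted p of 0.05 under all 10 alternatives, but not 0.001 with the pseudocount of 0.1, with the replicate number as a block or without any of the 4 libraries, where none of the genes tested passed it. ANGPT1 (Gene ID 284) lies on the minus strand of chromosome 8, from 107249482 to 107498055 on GRCh38, and no other annotated gene of GENCODE 29 overlaps it.

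In vessels ANGPT1 is made mainly by pericytes and other mural cells, so markers of these cells were read beside it. Of the 8 markers, 5 fell (27.1% of all genes did), 1 rose (30.8%) and 2 did not pass the test. The summed FPKM of the 8 was 30.2 and 30.9 with knockdown against 48.4 and 48.7 with SCR. PDGFRB, the receptor of the pericyte mitogen PDGF-B, fell from 21.8 and 21.2 to 6.28 and 6.53 (log2 fold change -1.60). ABCC9, the channel partner of KCNJ8, went the other way and rose from 6.63 and 6.78 to 13.2 and 13.4 (0.89, limma adjusted p = 0.000379). The defining pericyte markers RGS5 and KCNJ8 stayed below an FPKM of 1 in every library. The libraries are labelled U87, a cultured line, and the labels name no mural cells. These values therefore describe cultured cells and do not measure a number of mural cells. Whether the markers and ANGPT1 fell for a shared reason was not tested.

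ANGPT2, the other angiopoietin, was listed at 0.20 and 0.12 with knockdown and at 0.16 and 0.10 with SCR, about 9 to 19 reads per library. The groups overlapped. The log2 fold change was 0.04 (95% interval -0.12 to 0.19, limma adjusted p = 0.609), and a change was not detectable at this depth. MCPH1 overlaps ANGPT2 on the opposite strand. Whether counting used the strand is not given in the sources used here.

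VEGFA fell. Its FPKM was 134 and 133 with knockdown and 226 and 222 with SCR, so that the groups were separated by far more than the spread between replicates. The log2 fold change was -0.74 (SE 0.03, 95% interval -0.82 to -0.66, limma adjusted p = 0.000462), a fall of 40.3% that did not reach the fold change of 2. VEGFA (Gene ID 7422) spans 43770209 to 43786487 on the plus strand of chromosome 6, and its 20 listed transcripts share 1 value, so isoforms that differ in heparin binding were not separated. These levels correspond to about 8627 to 15913 reads per library. The antisense gene AL136131.3 overlaps it on the opposite strand.

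VEGFB fell less, and VEGFC moved the other way. VEGFB, a ligand of FLT1 linked to lipid uptake and survival more than to sprouting, had an FPKM of 42.2 and 39.6 with knockdown and of 51.0 and 54.1 with SCR. Its log2 fold change was -0.35 (SE 0.05, limma adjusted p = 0.00846). The lymphangiogenic ligand VEGFC had 76.0 and 74.2 with knockdown and 60.8 and 59.7 with SCR. It rose by a log2 fold change of 0.31 (SE 0.03, 95% interval 0.22 to 0.40, limma adjusted p = 0.00304), a ratio of 1.25. The groups of neither gene overlapped. The fall of VEGFB did not pass 0.05 when any of the 4 libraries was left out (adjusted p 0.0582 to 0.0922), while VEGFC passed each time (at most 0.0397).

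PGF, the placenta growth factor, was near the limit of detection. It had an FPKM of 0.56 and 0.93 with knockdown and of 0.28 and 0.33 with SCR, about 19 and 31 against 10 and 11 reads. The knockdown libraries differed from each other by more than the SCR libraries did. The log2 fold change was 0.41 (SE 0.12, limma adjusted p = 0.0489), which barely passed 0.05. With a pseudocount of 0.1 it was 1.03 and did not pass (adjusted p = 0.0509), and it was also lost without knockdown replicate 2 (0.0651), SCR replicate 1 (0.294) or SCR replicate 2 (0.254).

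The angiopoietin-like genes both fell. ANGPTL2, a secreted inflammatory factor that signals through the integrin of ITGA5 and ITGB1, had an FPKM of 9.32 and 9.64 with knockdown and of 15.4 and 14.1 with SCR. Its log2 fold change was -0.59 (SE 0.05, limma adjusted p = 0.00222), a fall of 35.7%. ANGPTL4 had 19.8 and 20.9 with knockdown and 27.9 and 26.4 with SCR. Its log2 fold change was -0.40 (SE 0.05, limma adjusted p = 0.00492), a fall of 25.0%. The groups did not overlap in either gene. ANGPTL2 did not pass 0.05 without knockdown replicate 1 (adjusted p = 0.0557) or 2 (0.0517), and ANGPTL4 did not without knockdown replicate 1 (0.0612), SCR replicate 1 (0.0675) or SCR replicate 2 (0.0542). RALGPS1 overlaps ANGPTL2, and the antisense gene RAB11B-AS1 overlaps ANGPTL4, each on the opposite strand.

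VEGFA took a smaller and VEGFC a larger share of the ligand transcripts with knockdown. The summed FPKM of the 8 genes was 283 and 279 with knockdown and 388 and 383 with SCR. VEGFA made up 47.5% and 47.8% of it with knockdown and 58.3% and 58.0% with SCR, a difference of -10.5 percentage points. VEGFC made up 26.9% and 26.6% with knockdown and 15.7% and 15.6% with SCR. The ratio of VEGFA to VEGFC was 1.77 and 1.80 with knockdown and 3.71 and 3.72 with SCR. The share of ANGPT1 went from 1.59% and 1.57% to 0.0708% and 0.118%. For all of these shares the groups did not overlap, and the exact two-sided permutation test gave p = 0.333, its smallest value. ANGPTL4 kept a share of 6.89% to 7.49% in all libraries, and its groups overlapped (exact permutation p = 0.667).

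The receptors of these ligands were read next. The signaling receptors of endothelial cells were low, with an FPKM of at most 1.08, and the co-receptors and integrins were abundant. KDR, the main VEGFA receptor, had an FPKM of 0.87 and 0.85 with knockdown and of 0.36 and 0.32 with SCR and rose (log2 fold change 0.47, limma adjusted p = 0.00119). TEK, the angiopoietin receptor, had 0.97 and 1.08 with knockdown and 0.45 and 0.60 with SCR and rose too (0.41), a call lost without knockdown replicate 1 (adjusted p = 0.0923), knockdown replicate 2 (0.117) or SCR replicate 1 (0.0722). These levels stand for about 34 to 93 reads, and with a pseudocount of 0.1 the log2 fold changes were 1.13 and 0.86. FLT1 (0.40 and 0.40 against 0.43 and 0.54), FLT4 (0.37 and 0.51 against 0.38 and 0.19), TIE1 (at most 0.09) and LILRB2 (at most 0.02) did not pass the test.

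The co-receptors NRP1 and NRP2, which present VEGF to its receptors, both fell. NRP2, also a co-receptor of VEGFC, went from 95.3 and 97.6 with SCR to 55.1 and 58.4 with knockdown (log2 fold change -0.76), and NRP1 went from 117 and 122 to 94.2 and 94.9 (-0.33). The integrin chains ITGA5 and ITGB1, which form the fibronectin receptor and bind ANGPTL2, fell as well. ITGA5 went from 348 and 343 to 159 and 159 (-1.11), and was the differential gene of this list. ITGB1 went from 348 and 354 to 218 and 221 (-0.67), and ITGAV from 47.6 and 49.0 to 33.8 and 35.4 (-0.47). ITGB3, the partner of ITGAV in the vitronectin receptor, rose from 47.7 and 49.7 to 65.3 and 71.5 (0.48). In all, 5 of the 12 receptors and co-receptors fell (27.1% of all genes did), 3 rose (30.8%) and 4 did not pass. The median log2 fold change of the 12 was -0.03. The call of NRP1 was lost without knockdown replicate 1 (adjusted p = 0.055) or 2 (0.0533), and that of ITGB3 without SCR replicate 1 (0.0892) or 2 (0.0766). Without SCR replicate 1, 1 receptor rose in place of 3.

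The 16 listed genes known to be induced by hypoxia, as VEGFA and ANGPTL4 are, were lower with knockdown. All 16 fell (27.1% of all genes did), and 10 were differential, beside 6.69% of all genes in either direction. Their median log2 fold change was -1.30 beside 0.01 for all genes. The KEGG HIF-1 signaling pathway moved in both directions, with 45 of its 104 tested genes lower (27.1% of all genes were) and 20 higher (30.8%). The list of 16 was chosen with earlier results of these data known, so its counts are not independent of the data. CA9, a carbonic anhydrase that is a classical HIF target, had an FPKM of 15.9 and 15.3 with knockdown and of 158 and 147 with SCR (log2 fold change -3.20). SLC2A1, the glucose transporter GLUT1, had 11.8 and 12.2 against 65.5 and 61.0 (-2.30). DDIT4, an inhibitor of mTORC1, had 61.3 and 58.2 against 299 and 294 (-2.29), and PFKFB3, an activator of glycolysis, had 18.3 and 19.7 against 89.3 and 87.02 (-2.16). By the estimated log2 fold change VEGFA fell less than 12 of these 16 genes, and ANGPTL4 and VEGFB less than all 16, and these counts were the same under each of the 10 alternatives. ANGPTL2 fell less than 15 of them, or 13 to 16 under the alternatives.

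Of the 10 genes of the HIF machinery, 5 fell (27.1% of all genes did), 1 rose (30.8%) and 4 did not pass the test. The median log2 fold change of the 10 was -0.17. HIF1A, the oxygen-regulated subunit, had an FPKM of 156 and 157 with knockdown and of 392 and 406 with SCR (log2 fold change -1.34, limma). EGLN3, a prolyl hydroxylase that marks HIF for degradation and is itself a HIF target, was listed at 0.02 and 0.08 with knockdown against 4.73 and 5.07 with SCR (-2.49, or -5.09 with a pseudocount of 0.1). These 2 genes were differential, beside 6.69% of all genes. EPAS1, the other oxygen-regulated subunit, fell by less, from 65.7 and 66.1 to 60.7 and 60.5 (-0.12, limma adjusted p = 0.0294). The alternatives are not given for EPAS1 alone. The genes of this list that fell numbered 4 with a pseudocount of 0.1 or with the replicate block. They numbered 6 with the minimum FPKM, quantile normalization or median-ratio scaling. With any 1 of the 4 libraries left out, the number that fell was smaller than with every library. The gene that rose did not pass when either knockdown library was left out. Such fits leave 1 group with 1 library. HIF is regulated mainly at the level of the protein, which was not measured here.

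ANGPTL4 is also a target of PPAR receptors. Of the 15 genes of the PPAR list with a value, 8 fell, 3 rose and 4 did not pass the test (median log2 fold change -0.23). RXRB, the partner subunit of many nuclear receptors, was the differential gene among them, with an FPKM of 10.2 and 9.44 with knockdown against 22.4 and 23.2 with SCR (-1.13). The receptors themselves moved in different directions. PPARD had 10.2 and 10.8 against 18.8 and 17.7 (-0.74), and PPARA had 4.09 and 4.4 against 5.01 and 5.28 (-0.23). PPARG alone of the PPAR receptors rose, with 4.57 and 3.70 against 1.37 and 1.53 (1.06). Of the targets, CPT1A, which admits fatty acids to mitochondria, rose from 21.6 and 22.3 to 38.7 and 39.3 (0.80), opposite to ANGPTL4. The genes of this list that fell numbered 5 without knockdown replicate 1 and 4 without SCR replicate 1 or 2, and without SCR replicate 1 the genes that rose numbered 1.

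Among the genes that process or accompany the ligands, 3 of the 9 with a value fell (27.1% of all genes did) and 2 rose (30.8%). The other 4 did not pass, and none of the 9 was differential. CCBE1, which is needed for the activation of VEGFC, rose as VEGFC did, from 1.71 and 2.07 to 5.12 and 5.05 (log2 fold change 1.08). ADAMTS3, the protease that works with it, fell from 0.68 and 0.71 to 0.33 and 0.30 (-0.37). The proprotein convertases PCSK7 and PCSK5 also fell, PCSK7 from 10.5 and 9.57 to 5.86 and 5.69 (-0.70) and PCSK5 from 1.56 and 1.57 to 0.92 and 0.94 (-0.41). The convertase FURIN, which cleaves VEGFC precursors, had 34.3 and 33.9 against 34.4 and 33.9, and its groups overlapped. Without any of the 4 libraries, 1 gene of this list rose in place of 2. Of the 7 other members of the ligand families with a value, none exceeded an FPKM of 0.28 in any library. ANGPTL6 had 0.05 and 0.12 with knockdown against 0.28 and 0.25 with SCR and fell (-0.22), a call lost without knockdown replicate 1, SCR replicate 1 or SCR replicate 2. VEGFD was listed without a value.

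The endogenous inhibitors of angiogenesis moved in both directions. Of the 12 genes with a value, 5 fell (27.1% of all genes did), 4 rose (30.8%) and 3 did not pass the test. THBS1, the matrix protein thrombospondin-1, fell from 7.42 and 8.06 to 0.73 and 0.75 (log2 fold change -2.33), and TIMP3, which blocks binding of VEGFA to KDR, fell from 33.5 and 34.4 to 6.22 and 6.46 (-2.25). VASH1, which encodes vasohibin-1, fell from 3.86 and 3.92 to 1.02 and 1.14 (-1.23). SEMA3A, which competes with VEGFA for NRP1, rose from 0.86 and 0.89 to 5.19 and 5.80 (1.79). In all, 3 of these genes were differential and lower and 2 were differential and higher, beside 6.69% of all genes in either direction.

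The gene whose levels were closest to ANGPT1, by the sum of squared differences of log2(FPKM + 1) over the 4 libraries, was GPR146 (0.13). GPR146, an orphan receptor, had an FPKM of 0.24 and 0.28 with knockdown and of 5.01 and 4.89 with SCR. Over 4 libraries of 2 groups, such likeness says only that level and change were alike.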

How the data were processed

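RNA of 2 PTPRN knockdown and 2 SCR libraries was read on a BGISEQ-500 as single ends (50 bases). FPKM values were deposited by the authors, rounded to 2 decimals, for 19314 genes, of which 16595 had a value. The submitters' processing notes name HISAT2 2.1.0 and hg19, with no role given, while the deposited positions lie on GRCh38 (97.2% of 18767 symbols overlap their GENCODE 29 position). The counting program is not given in the sources used here. The deposited tables also hold the authors' own fold changes and p-values of group and single-library comparisons, which were not used. The 66380 FPKM values present in both tables were identical.

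The 16595 genes were fitted with limma 3.58.1 (R 4.3.3, lmFit and eBayes, default options) on log2(FPKM + 1), group being the sole term, and the fit was tested on simulated data. The differential thresholds follow the study's methods. Depth was estimated from genes with 1 transcript under 2500 bases and an FPKM under 0.5. There 83.4% to 87.2% of the 819 to 843 values per library lay within 0.2 of a whole number of reads. Approximate reads use the longest transcript. FPKM holds no counting interval of its own, so precision rests on the 2 replicates.

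The members and lists were chosen with earlier results of these data known. Named were all 8 ligand genes, PTPRN, every receptor, up to 4 differential genes per list with a mean FPKM of at least 1, by size of change, and the 2 genes nearest to each differential ligand gene, of which 1 is not reported here. The remaining names were picked with their values in view (EPAS1, PPARA, PPARD, PPARG, CPT1A, CCBE1, ADAMTS3, PCSK5, PCSK7, FURIN, ANGPTL6, the marker genes). Alternatives were a pseudocount of 0.1, a minimum FPKM (1, reached by 2 libraries or more), quantile normalization, median-ratio scaling, an eBayes trend, the replicate number as a block and leaving out each library. They were extended to the lists of related genes, the other genes named by rule and the shares after seeing the data. For the names picked with their values in view they are not given gene by gene, and the marker lists were not refitted. Promoter motifs were searched with Python 3.11.15.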

Additional observations from a re-analysis of the deposited data

How the results depend on the processing

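PTPRN, VEGFA, VEGFC and ANGPT1 kept their direction and stayed past 0.05 in each of the 10 alternatives. Their log2 fold changes were -2.83 to -2.71, -0.86 to -0.73, 0.22 to 0.33 and -4.10 to -2.41 (limma adjusted p at most 0.0397). The count of differential genes rested on the strict threshold. With a pseudocount of 0.1, with the replicate block and without any of the 4 libraries it was 0 over all genes (limma) and 0 for the ligand genes, while 10185, 10108 and 8700 to 8790 genes had an unadjusted p under 0.05. At an adjusted p of at most 0.05 with no minimum fold change it was 9603 for all genes and 7 for the ligand genes. The ligand genes past 0.05 numbered 4 without each library in turn, beside 37.2% to 38.2% of all genes against 57.9% with every library. In these fits the library left alone in its group is assumed to vary like the other group. Across these fits the log2 fold change was -0.40 to -0.31 for VEGFB, 0.26 to 0.56 for PGF, -0.64 to -0.53 for ANGPTL2, -0.44 to -0.36 for ANGPTL4 and -0.01 to 0.09 for ANGPT2, which did not pass in any of them. With a pseudocount of 0.1 PGF had 1.03 and did not pass. PGF and ANGPT2 were too low to be tested under the minimum FPKM of 1. The difference in the share of VEGFA was -11.3 percentage points with quantile normalization. For 30 other named genes, all 174 values with no library left out kept direction and call, while of the 120 with a library left out 7 lost the call (TEK, NRP1 and ITGB3) and 1 (FLT1) gained it. No scaling moved the median of all genes by more than 0.1. The replicate numbers are not stated to mark a shared culture, and the differences between replicates 1 and 2 had a correlation of 0.0635 between the groups, so they share only a number. With the replicate block 7 ligand genes passed 0.05, as without it.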

Other observations

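The deposited table assigns 104 tested genes to the KEGG HIF-1 signaling pathway, 4 of them ligand genes. Of these 104, 45 fell (27.1% of all genes did) and 20 rose (30.8%). The other 39 did not pass an adjusted p of 0.05 (limma), and the median log2 fold change of the 104 was -0.12. Of the 73 tested genes of the KEGG VEGF signaling pathway, which holds mostly the intracellular steps below KDR, 21 fell, 18 rose and 34 did not pass (median -0.03).

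Markers of other cells were read in the same libraries. Over all genes tested, 27.1% fell and 30.8% rose. Of the 8 myeloid markers with a value, 2 fell, 2 rose and 4 did not pass. CD68, a lysosomal protein also made outside the myeloid lineage, rose from 230 and 231 to 357 and 340, and FCER1G rose from 0.65 and 0.41 to 0.91 and 1.12 (log2 fold change 0.40). CSF1R, the receptor of a macrophage growth factor, fell from 3.17 and 3.11 to 1.96 and 2.17 (-0.43), and CD14 fell from 0.89 and 0.80 to 0.22 and 0.35 (-0.52). LYZ lay at 1.67 to 2.93 and did not pass the test. Of the 11 endothelial markers with a value, 2 fell, 1 rose and 8 did not pass, with a summed FPKM of 2.49 to 4.54. PECAM1 and VWF fell, VWF from 0.98 and 0.93 to 0.06 and 0.05 (log2 fold change -0.89). ERG rose from 0.07 and 0.07 to 0.68 and 0.94 (0.75). Of the 9 genes listed as markers of glioma lines, 5 fell, 2 rose and 2 did not pass. VIM, an intermediate filament gene of mesenchymal cells, rose (log2 fold change 1.25), while NES (-1.78), CHI3L1 (-1.55) and TNC (-1.37) fell. SOX2 and S100B stayed at or below 0.27, and GFAP at or below 0.55.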
